A study of Mus musculus with 12 samples.

Results

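Tcrg constant and lymphoid-associated transcripts were followed in leukemic c-Kit+ cells treated with CCS1477, an inhibitor of the bromodomain of the acetyltransferases p300 and CBP. The set holds 9 genes of the 15651 in the expression table: the T cell receptor gamma constant genes *Tcrg-C1*, *Tcrg-C2* and *Tcrg-C4*, the immunoglobulin mu constant gene *Ighm*, and *Dntt*, *Il7r*, *Satb1*, *Ikzf1* and *Notch1*. It was assembled by gene name, and it was chosen because *Tcrg-C1* is among the largest falls under CCS1477. All 9 were in the table. The change with CCS1477 was therefore used in choosing the set and is given here as a description. Counts of members that passed stand beside the share over all genes, and nothing is read from them.

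RNA-seq was made from 6 mice, 3 of each genotype, and each mouse gave 1 DMSO and 1 CCS1477 library. *D/F* cells came from *Dnmt3a* fl/fl *Flt3* ITD/ITD *Mx1*Cre mice and received 4 µM CCS1477. *T/F* cells came from *Tet2* fl/fl *Flt3* ITD/ITD *Mx1*Cre mice and received 2 µM. Exposure lasted 6 h in all groups, DMSO was the vehicle, and both genotypes carried the *Flt3* internal tandem duplication and *Mx1*-Cre. The cells were splenocytes of moribund mice, enriched for c-Kit and cultured with stem cell factor, interleukin-6 and interleukin-3. *Mx1*-Cre acts in blood cells and many other cells, and here its leaky activity alone deleted the floxed alleles, with no inducer given. Genotype and dose differ together, so they cannot be told apart in any comparison of the responses of *D/F* and *T/F* cells.

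The T cell receptor gamma locus is rearranged in developing T cells, but its constant genes can also be transcribed before or without rearrangement. *Ighm* encodes the constant part of the mu heavy chain, and its locus likewise gives unrearranged transcripts in cells that are not B cells. *Dntt* encodes TdT, which adds nucleotides at the joints of rearranging receptor genes. *Il7r* encodes the alpha chain of the interleukin-7 receptor, which early lymphoid cells need to survive and divide. *Ikzf1* (Ikaros), *Satb1* and the receptor *Notch1* regulate lymphoid development and are also expressed in stem and progenitor cells.

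The values are TPM, an abundance scaled for transcript length and library size that the authors computed with kallisto. The paper states a common sequencing depth per sample, but TPM keeps no read number, so the reads counted in each library are unknown. The 12 libraries had median values between 16.1 and 20.4 TPM over the genes in the table. The progenitor markers were present throughout, with *Mpo* between 277 and 3673 TPM, *Kit* between 22.8 and 149 TPM and *Cd34* between 49.7 and 447 TPM. *Dnmt3a* lay between 29.3 and 55.7 TPM in *D/F* cells and between 39.9 and 57.2 TPM in *T/F* cells, and *Tet2* lay between 24.6 and 35.8 TPM in *T/F* cells and between 32.5 and 43.4 TPM in *D/F* cells. A value per gene cannot show the loss of single exons, so these ranges do not test the deletions. *D/F* replicate 2 stood apart from the other *D/F* mice. Its DMSO library correlated with theirs at r = 0.945 and 0.952 over log2 values, against 0.978 between the other two, and its CCS1477 library did so at 0.946 and 0.956, against 0.982. It was the highest *D/F* mouse for 109 of 163 genes on the lists below with DMSO and 95 with CCS1477. *T/F* replicate 3 was the highest *T/F* mouse for 99 and 96 of them. *Mpo* was lowest in *D/F* replicate 2, at 1163 TPM with DMSO and 277 TPM with CCS1477.

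The Tcrg constant genes are copies of one another, which bears on how far their values can be separated. The first 150 bases of their first constant exon, which is coding, are shown 5′ to 3′ from the GENCODE vM21 transcripts (GRCm38), with capitals at the positions that differ from *Tcrg-C1*. They lie at chr13:19214103-19214252 on the plus strand for *Tcrg-C1*, at chr13:19307402-19307551 on the minus strand for *Tcrg-C2* and at chr13:19344558-19344707 on the plus strand for *Tcrg-C4*.
Tcrg-C1: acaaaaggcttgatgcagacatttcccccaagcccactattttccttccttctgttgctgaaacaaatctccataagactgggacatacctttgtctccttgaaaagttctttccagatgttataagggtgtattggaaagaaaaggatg
Tcrg-C2: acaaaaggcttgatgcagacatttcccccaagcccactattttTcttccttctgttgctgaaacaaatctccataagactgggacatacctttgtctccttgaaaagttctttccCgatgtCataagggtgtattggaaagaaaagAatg
Tcrg-C4: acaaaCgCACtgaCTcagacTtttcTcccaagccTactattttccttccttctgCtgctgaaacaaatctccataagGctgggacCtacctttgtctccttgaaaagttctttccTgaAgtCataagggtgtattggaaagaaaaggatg
In this stretch *Tcrg-C2* differs from *Tcrg-C1* at 4 positions and *Tcrg-C4* at 15. Over the 330 bases of the exon, identity with *Tcrg-C1* was 97.3% for *Tcrg-C2* and 82.1% for *Tcrg-C4*. Of the 31-base words of the *Tcrg-C1* transcript, 35.8% also occur in *Tcrg-C2* and none occur in *Tcrg-C4*. Kallisto assigns reads by such words, so the division of reads between *Tcrg-C1* and *Tcrg-C2* is uncertain, while *Tcrg-C4* has no word in common with the other constant genes. *Tcrg-C1* also shares 29.5% of its words, and 96.1% of the bases of this exon, with *Tcrg-C3*, which is not analysed here, and 51.6% of its words occur in no other constant gene. The sum over the 3 genes is given beside the single values, but it does not settle reads shared with *Tcrg-C3*.

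*Tcrg-C1* (13:19214103-19217024) was one of the most abundant of the 9 transcripts in vehicle-treated cells and was almost gone after 6 h of CCS1477. In *D/F* cells it stood at 219, 109 and 204 TPM with DMSO and at 3.80, 0 and 6.31 TPM with CCS1477, replicates 1 to 3. In the *T/F* mice it stood at 69.2, 44.2 and 130.2 TPM with DMSO and at 6.22, 2.95 and 3.02 TPM with CCS1477. The DMSO and CCS1477 libraries did not overlap in either genotype, and every mouse was lower with the drug. The log2 fold change on the log2(TPM + 1) scale was −5.70 ± 0.74 (SE) in *D/F* and −3.94 ± 0.44 in *T/F* cells. Over the mice left out it ran from −6.15 to −5.16 in *D/F* and from −4.27 to −3.40 in *T/F* cells. A value of 0 in this table can be a failed estimate, so *Tcrg-C1* is only listed at 0 in *D/F* replicate 2 with CCS1477.

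*Tcrg-C2* (13:19304649-19307551) followed the same course at a lower level. It was 27.2, 20.4 and 9.54 TPM in the *D/F* DMSO libraries and 0.744, 0.206 and 0.532 TPM with CCS1477. The *T/F* libraries held 3.18, 1.13 and 6.46 TPM with DMSO and 0.103, 0.134 and 0 TPM with CCS1477. The log2 fold changes were −3.65 ± 0.38 in *D/F* and −1.91 ± 0.44 in *T/F* cells. In each genotype *Tcrg-C2* reached the expression filter of 1 TPM only through the DMSO group, which fixed its direction. *Tcrg-C4* (13:19344558-19352756) was low in all libraries but 1: it was 2.08, 9.04 and 1.45 TPM in *D/F* DMSO, where replicate 2 was highest, and 0.349, 0 and 0 TPM with CCS1477. The *T/F* cells did not exceed 0.269 TPM with DMSO and listed the gene at 0 in all 3 CCS1477 libraries, so that it lay under the expression filter and was not tested.

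The sum of the 3 constant genes was lower with CCS1477 in every mouse. It was 248, 138 and 215 TPM in *D/F* DMSO and 4.89, 0.206 and 6.84 TPM in *D/F* CCS1477. The *T/F* sum was 72.4, 45.6 and 137 TPM with DMSO and 6.33, 3.08 and 3.02 TPM with CCS1477. The CCS1477 library kept 0.0177 ± 0.0153 of the DMSO sum in *D/F* mice, and the share was 0.0591 ± 0.0335 in *T/F* mice (mean ratio ± SD, n = 3 mice each). *Tcrg-C1* made up between 78.7% and 94.9% of the sum in *D/F* DMSO and between 95.1% and 97.0% in *T/F* DMSO libraries.

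**Figure D1:**
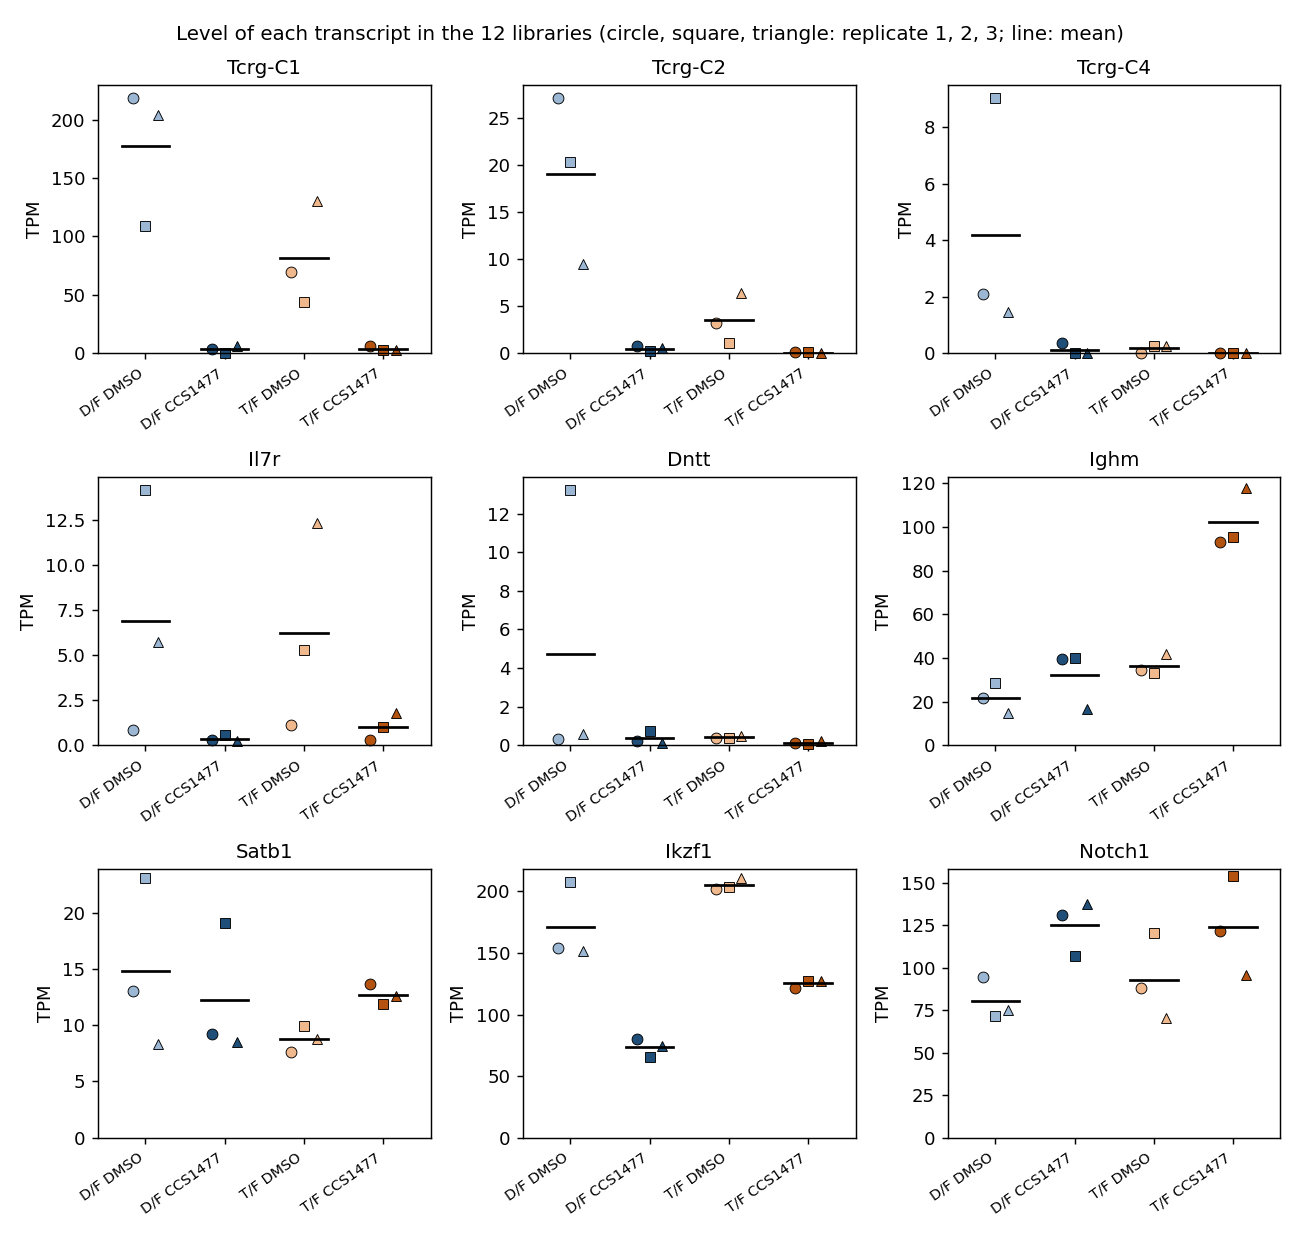
TPM of the 9 transcripts in the 12 libraries, 1 panel per gene with its own linear axis from 0; symbols mark replicates and lines mark group means. The *Tcrg-C1* points fall from between 44.2 and 219 TPM with DMSO to at most 6.31 TPM with CCS1477, and the *Dntt* and *Tcrg-C4* means in *D/F* DMSO rest on replicate 2.

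*Il7r* and *Dntt* were also lower with CCS1477 in every mouse, from levels that varied widely between mice. *Il7r* (15:9505788-9530176) was 0.829, 14.2 and 5.76 TPM in *D/F* DMSO and 0.295, 0.569 and 0.269 TPM with CCS1477. The *T/F* values were 1.13, 5.28 and 12.4 TPM with DMSO and 0.301, 1.01 and 1.78 TPM with CCS1477. Groups did not overlap in *D/F* but did in *T/F* cells, where replicate 3 with CCS1477 was above replicate 1 with DMSO. The log2 fold changes were −2.06 ± 0.72 and −1.54 ± 0.69. Over the mice left out they ran from −2.84 to −1.46 in *D/F* and from −1.95 to −1.18 in *T/F* cells. In *D/F* cells *Il7r* reached the filter of 1 TPM only through the DMSO group, which fixed its direction.

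*Dntt* (19:41029275-41059525) was at 13.2 TPM in *D/F* replicate 2 with DMSO and under 1 TPM in the other 11 libraries. In that mouse it was 0.750 TPM with CCS1477. In the other *D/F* mice it went from 0.322 and 0.578 TPM to 0.217 and 0.147 TPM, and in *T/F* cells from 0.403, 0.376 and 0.495 TPM to 0.108, 0.0936 and 0.209 TPM. The *D/F* log2 fold change of −1.20 ± 0.89 therefore rests on 1 mouse, and without it *Dntt* fell under the expression filter. *Dntt* was not tested in *T/F* cells for the same reason.

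Sequence upstream of the start of *Dntt* and *Il7r* is shown because these genes encode lymphoid products and were lower with CCS1477 in every mouse. In *D/F* cells both reached the filter of 1 TPM only through the DMSO group, so nothing is read from their common direction. The sequence is taken from RefSeq on GRCm38.p6 and leaves out GENCODE exons. The *Dntt* stretch ends at the base before its start. RefSeq gives more than 1 start for *Il7r*, and the stretch shown ends before the one farthest upstream, which is the end of the RefSeq gene interval. Capitals mark GGGAA, the core that Ikaros proteins bind, and TTCNNNGAA, the form that STAT proteins bind, on either strand. The *Dntt* stretch is chr19:41029025-41029274 on the plus strand and that of *Il7r* is chr15:9529942-9530040 on the minus strand. GENCODE places a first exon of *Il7r* farther upstream still, so that stretch lies between exons, inside the gene interval given above.
Dntt: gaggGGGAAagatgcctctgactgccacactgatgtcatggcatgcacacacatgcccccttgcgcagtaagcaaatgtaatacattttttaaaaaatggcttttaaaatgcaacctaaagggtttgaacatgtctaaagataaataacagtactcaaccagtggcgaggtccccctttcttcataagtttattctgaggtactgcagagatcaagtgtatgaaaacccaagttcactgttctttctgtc
Il7r: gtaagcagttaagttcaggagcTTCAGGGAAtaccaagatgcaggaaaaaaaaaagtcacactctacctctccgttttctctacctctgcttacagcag
In the *Il7r* stretch the STAT form and a GGGAA overlap. Of 32851 promoter windows of 250 bases, 56.2% hold GGGAA and 7.0% hold TTCNNNGAA, so these matches are descriptions of the sequence. The *Il7r* stretch has only 99 bases, so these shares are not a background for its matches.

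*Ikzf1* (11:11685003-11772926), the gene of Ikaros, was abundant and lower with CCS1477 in every mouse. It was 154, 207 and 151 TPM in *D/F* DMSO against 79.8, 65.8 and 74.6 TPM with CCS1477. The *T/F* cells had 202, 204 and 211 TPM against 121, 127 and 128 TPM. The libraries of each genotype did not overlap, and the log2 fold changes were −1.20 ± 0.18 and −0.71 ± 0.06. CCS1477 libraries kept 0.443 ± 0.110 of the DMSO level in *D/F* mice, against 0.609 ± 0.012 for *T/F*.

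*Notch1* and *Ighm* were higher with CCS1477 in every mouse. *Notch1* (2:26457903-26516663) was 94.8, 71.6 and 75.0 TPM in *D/F* DMSO and 131, 107 and 137 TPM with CCS1477. In *T/F* cells it was 88.1, 120.3 and 70.5 TPM with DMSO and 122, 154 and 96.0 TPM with CCS1477, so that the groups overlapped although each mouse moved the same way. The log2 fold changes were 0.63 ± 0.18 and 0.42 ± 0.25, with standard errors of 0.12 and 0.05 when paired by mouse.

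*Ighm* (12:113418558-113422730) was 21.8, 28.6 and 14.8 TPM in *D/F* DMSO and 39.7, 40.0 and 16.8 TPM with CCS1477, and these groups overlapped. In *T/F* cells it was 34.5, 33.1 and 41.7 TPM with DMSO and 93.1, 95.4 and 118 TPM with CCS1477, well apart. The ratio of CCS1477 to DMSO was 1.45 ± 0.35 over the *D/F* mice and 2.81 ± 0.09 over the *T/F* mice (mean ± SD, n = 3 each), and the log2 fold changes were 0.49 ± 0.40 and 1.46 ± 0.13. The *D/F* log2 change ran from 0.32 to 0.65 over the mice left out.

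*Satb1* (17:51736187-51833290), which encodes an organizer of chromatin loops, had no common direction. It was 13.1, 23.1 and 8.32 TPM in *D/F* DMSO and 9.22, 19.1 and 8.51 TPM with CCS1477, where 2 mice were lower and 1 was higher. The *T/F* libraries gave 7.64, 9.95 and 8.80 TPM with DMSO and 13.7, 11.9 and 12.6 TPM with CCS1477, higher in all 3 mice. The log2 fold changes were −0.23 ± 0.43 and 0.49 ± 0.11.

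At an adjusted p under 0.05, 3 of the 9 genes passed in *D/F* cells (*Tcrg-C1*, *Tcrg-C2* and *Ikzf1*, all lower). Of all genes tested there 11.6% passed, 5.14% higher and 6.51% lower. In *T/F* cells 5 of the 7 genes tested passed (*Tcrg-C1*, *Tcrg-C2* and *Ikzf1* lower, *Ighm* and *Satb1* higher), while 43.4% of all genes passed, 25.8% higher and 17.6% lower. The direction of *Tcrg-C2* was fixed in *T/F* cells too, since it was tested only through its DMSO level. When libraries of a mouse were paired, 5 of 9 passed in *D/F*, with *Notch1* and *Tcrg-C4* added (*Tcrg-C4*, like *Tcrg-C2*, was tested only through its DMSO level, which fixed its direction), and all 7 tested in *T/F* cells, where 39.3% and 54.1% of all genes passed. Without *D/F* replicate 1 or 3 neither the 9 genes nor any other gene in the table passed in *D/F* cells (2494 and 2330 genes had an unadjusted p under 0.05). Leaving out replicate 2 instead gave 5 of 8 members and 24.6% of all genes. Leaving out *T/F* replicate 1 or 3 took *Tcrg-C2* and *Satb1* out of the *T/F* count, which became 4 of 7 without replicate 1, where *Il7r* came in, and 3 of 7 without replicate 3. Of all genes 22.8% and 33.7% passed in these fits, and 20.9% without *T/F* replicate 2. In 1 fit over all 4 groups *Satb1* no longer passed in *T/F* cells, where 24.3% of all genes did.

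**Figure D2:**
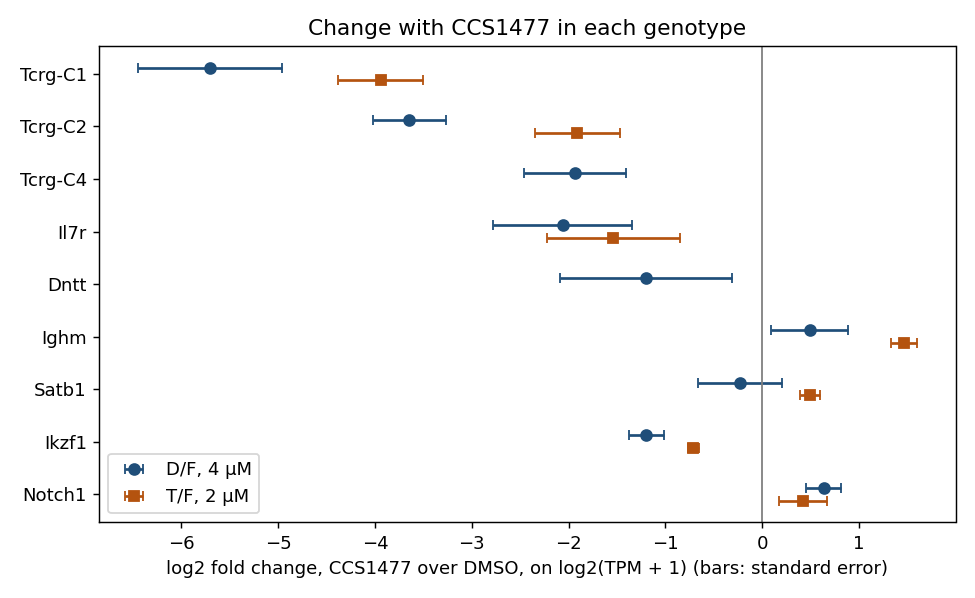
Log2 fold change of each transcript with CCS1477 on the log2(TPM + 1) scale, circles for *D/F* and squares for *T/F* cells, with bars for the standard error. *Tcrg-C1* in *D/F* cells lies farthest to the left at −5.70, and *Ighm* in *T/F* cells lies farthest to the right at 1.46; *Tcrg-C4* and *Dntt* have no *T/F* point because they were not tested there.

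The order of the levels changed with treatment. In *D/F* DMSO cells *Tcrg-C1* had the highest mean, 177 ± 60 TPM (SD, n = 3), but overlapped with *Ikzf1* at 171 ± 32 TPM, and *Notch1* followed apart from both at 80.4 ± 12.5 TPM. From *Ighm* at 21.7 TPM down to *Tcrg-C4* at 4.19 TPM each gene overlapped with the next. With CCS1477 *Notch1* led at 125 ± 16 TPM, and *Tcrg-C1* came behind *Satb1* at 3.37 ± 3.18 TPM. In *T/F* DMSO cells *Ikzf1* led at 206 ± 4 TPM, and *Notch1* at 93.0 ± 25.2 TPM overlapped with *Tcrg-C1* at 81.2 ± 44.2 TPM. With CCS1477 *Ikzf1*, *Notch1* and *Ighm* all lay near the top, at 125, 124 and 102 TPM, and neighbours among them overlapped. TPM is corrected for transcript length, so levels can be set side by side. The places of *Tcrg-C1* and *Tcrg-C2* also depend on how reads shared among the Tcrg constant genes were divided.

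Genotype was compared next, since the set was not chosen on it. The design of 3 against 3 mice cannot go below p = 0.10 in a two-sided exact permutation test, the value given by groups that do not overlap. With DMSO, *Tcrg-C2* was lower in *T/F* than in *D/F* cells in every pairing of libraries, at 3.59 ± 2.69 against 19.0 ± 8.9 TPM. The log2 difference was −2.19 ± 0.55, with an adjusted p of 0.52 in limma. *Tcrg-C4* was at 0.170 against 4.19 TPM, a log2 difference of −1.86 ± 0.52. It passed the filter of 1 TPM only through the *D/F* DMSO group, which fixed this direction, so its values are a description. *Tcrg-C1* had a log2 difference of −1.19 ± 0.45 and an adjusted p of 0.75, and its libraries overlapped. *Ighm* was higher in *T/F* than in *D/F* cells without overlap, by 0.76 ± 0.25 on the log2 scale and with an adjusted p of 0.69. None of the 9 genes passed, and 0.0328% of all genes did. At an unadjusted p under 0.05 there were 4 of the 9, *Tcrg-C4* among them, against 6.15% of all genes. Without *D/F* replicate 2 the log2 difference of *Tcrg-C4* was −1.24. These DMSO libraries also entered the contrast that chose the set.

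Under CCS1477, *Ikzf1* and *Ighm* were higher in *T/F* than in *D/F* cells with no overlap. *Tcrg-C2* was lower in *T/F* cells with no overlap, at 0.0791 against 0.494 TPM, but lay under the filter and was not tested. The *T/F* cells had received 2 µM and the *D/F* cells 4 µM, so genotype and dose cannot be told apart here. *Ikzf1* was at 125 ± 3 against 73.4 ± 7.1 TPM, a log2 difference of 0.77 ± 0.11 with an adjusted p of 0.13. *Ighm* was at 102 ± 14 against 32.2 ± 13.3 TPM, a log2 difference of 1.73 ± 0.34 with an adjusted p of 0.19. None of the 6 genes tested passed in limma, where 0.0329% of all genes did, and 2 had an unadjusted p under 0.05 against 10.8% of all genes. In 1 fit over all 4 groups *Ikzf1* passed, with an adjusted p of 0.038.

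The responses themselves were compared by the interaction of genotype and treatment. The log2 response of *Ighm* was greater in *T/F* by 0.97 ± 0.45, and that of *Ikzf1* was less negative by 0.49 ± 0.18. Over the mice left out the *Ikzf1* difference ran from 0.26 to 0.62. The fall of *Tcrg-C1* was smaller in *T/F* by 1.76 ± 0.95. *Tcrg-C2* and *Tcrg-C4* stood so low in *T/F* DMSO that log2(TPM + 1) leaves little room for a fall, so their direction is not read. As a ratio, the CCS1477 libraries kept 0.0311 ± 0.0230 of the *Tcrg-C2* level in *D/F* and 0.0505 ± 0.0616 in *T/F* mice, which overlapped. No gene in the table passed the interaction test in limma (0% of 15583, adjusted p of 1.00 for *Ighm*, *Ikzf1* and *Tcrg-C1*). At an unadjusted p under 0.05 there were 3 of the 9 (*Tcrg-C2*, *Tcrg-C4* and *Ikzf1*), against 4.23% of all genes. The difference contains the change that chose the set, so nothing is read from this count. Paired by mouse, 6 of the 9 had an unadjusted p under 0.05 against 14.7% of all genes, and again no gene passed after adjustment; *Ighm* had an adjusted p of 0.17 and *Ikzf1* one of 0.34. Of the genes on the lymphoid and progenitor lists none passed between genotypes with DMSO (0 of 167), with CCS1477 (0 of 157) or for the difference of responses (0 of 168), where 18, 27 and 14 had an unadjusted p under 0.05, against 6.15%, 10.8% and 4.23% of all genes. For the difference of responses the paired fit gave 41 of 168. Without *D/F* replicate 2 the unadjusted counts were 35, 35 and 19, against 11.5%, 15.8% and 8.06% of all genes, and 3 listed genes passed under CCS1477, as did 0.179% of all genes.

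Markers of other cell types were examined beside the Tcrg values, since a bulk sample cannot tell fewer cells of a type from less RNA per cell. Of 25 T cell and T cell receptor signalling genes, 16 were in the table, and their summed level lay between 273 and 504 TPM in *D/F* DMSO and between 130 and 155 TPM in *D/F* CCS1477 libraries. The *T/F* sums lay between 212 and 342 TPM with DMSO and between 142 and 202 TPM with CCS1477. Abundant genes lead these sums, so they do not measure a number of T cells. In *D/F* cells *Lcp2* averaged 103 and 33.3 TPM and *Thy1* 71.8 and 31.1 TPM with DMSO and CCS1477. *Cd4* averaged 3.70 and 4.14 TPM there, *Cd8a* 4.65 and 4.20 TPM and *Cd247* 1.99 and 2.94 TPM. The log2 change was negative for 13 of 16 genes in *D/F* and 13 of 15 in *T/F* cells. *Cd3d*, a subunit of the receptor complex that mature T cells need at the surface, was at 7.25 to 14.9 TPM in all 12 libraries. Its log2 change with CCS1477 was −0.29 ± 0.27 in *D/F* (adjusted p = 0.51) and −0.08 ± 0.13 in *T/F* cells (adjusted p = 0.65). *Cd3e* and *Cd3g* are not analysed here. *Trbc2*, a constant gene of the T cell receptor beta chain, was listed at 0 in 9 of 12 libraries, with its highest value, 2.11 TPM, in *D/F* replicate 2 with DMSO.

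The lists below were tested in both genotypes, and every *D/F* call in them was lost without *D/F* replicate 1 or 3. Without replicate 2 instead, where 24.6% of all genes passed, the falls on the lists came to 4 of 13 T cell genes, 4 of 12 T lineage factors (2 more rose), 6 of 7 natural killer, 2 of 7 plasmacytoid dendritic and 7 of 21 early lymphoid genes, 15 of 20 progenitor genes and 1 of 9 B cell genes. On the pathway lists 3 Notch genes then rose and 3 fell, 1 interleukin-7 receptor signalling gene rose and 4 fell, and 2 end-joining genes rose. The 74 *T/F* calls over all lists became 38 without *T/F* replicate 1 and 32 without replicate 2, where 22.8% and 20.9% of all genes passed. The counts with all mice stand against 6.51% of all genes lower and 5.14% higher in *D/F*, and 17.6% lower and 25.8% higher in *T/F* cells. Counts with libraries paired by mouse are given where they differed by over 1.5 times, and the shares of all genes that passed in that fit, in either direction, were 39.3% (*D/F*) and 54.1% (*T/F*). Genes that reached the filter of 1 TPM through the DMSO group alone had a fixed direction. Named after their values were seen, in the unpaired fit they were *Gzmb* among the *D/F* falls and *Cd5*, *Pax5*, *Klrd1*, *Gzmb* and *Cd300c* among the *T/F* falls. The paired fit added *Cd7*, *Klrb1c*, *Klrk1*, *Cd300c*, *Notch3* and *Fcgr1* to such *D/F* falls, and *Cd7* to such *T/F* falls. Among the T cell list, 1 of 16 genes tested fell and none rose in *D/F* cells, with a median log2 change of −0.65 against 0.06 for all genes, and 6 fell in the paired fit. Over the 13 genes tested without *D/F* replicate 2 the *D/F* median was −0.29. Of 15 tested in *T/F* cells 5 fell and 1 rose, with a median of −0.47 against 0.07, and none rose in the paired fit. *Ubash3a*, which encodes a suppressor of T cell receptor signalling, fell in both, from 33.7, 52.8 and 45.7 to 3.18, 3.75 and 2.79 TPM in *D/F* and from 32.2, 30.0 and 36.6 to 3.88, 3.27 and 4.11 TPM in *T/F* cells. The log2 changes were −3.39 ± 0.21 (adjusted p = 0.0031) and −2.84 ± 0.11 (adjusted p = 0.00024). Of 12 T lineage transcription factors, 1 fell in *D/F*, and 4 fell and 2 rose in *T/F* cells. Paired by mouse, 4 fell and 1 rose in *D/F*, and 5 fell and 4 rose in *T/F* cells. *Runx3* fell in both, by 1.59 ± 0.33 and 1.07 ± 0.20 on the log2 scale (adjusted p = 0.032 and 0.0086), and its *T/F* adjusted p was 0.065 without replicate 1 and 0.053 without replicate 2. The 2 that rose in *T/F* cells, named after their values were seen, were *Rora* and *Gata3*, by 1.03 ± 0.16 and 1.40 ± 0.23 on the log2 scale (adjusted p = 0.0044 and 0.0051). Their *D/F* log2 changes were 1.52 ± 0.40 and 0.83 ± 0.56 (adjusted p = 0.059 and 0.37), and paired by mouse *Rora* passed there (adjusted p = 0.0047).

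Of the natural killer and innate lymphoid genes tested, 4 of 8 fell in *D/F* and 6 of 7 in *T/F* cells, and none rose, where 6.51% and 17.6% of all genes were lower. Paired by mouse, 7 of 8 fell in *D/F* cells. Of the genes tested, 4 in *D/F* and 2 in *T/F* cells reached the filter through the DMSO group alone, so nothing is read from these counts. *Gzmb* (granzyme B) was one of them and averaged 16.2 and 0.847 TPM in *D/F*, and 5.33 and 0.228 TPM in *T/F* cells, with DMSO and CCS1477. *Nkg7*, a cytotoxic granule gene, fell on the log2 scale by 2.91 ± 0.56 and 2.11 ± 0.25 (adjusted p = 0.027 and 0.0019), and *Fcgr3* by 2.63 ± 0.58 and 1.60 ± 0.24 (adjusted p = 0.037 and 0.0039). *Fcgr3*, an Fc receptor, is also carried by myeloid progenitors. The defining marker *Klrb1c* was at 1.27, 2.34 and 8.54 TPM in *D/F* DMSO and at most 0.461 TPM in *D/F* CCS1477 libraries. In *T/F* cells it did not exceed 0.0431 TPM with DMSO and was listed at 0 with CCS1477, and *Ncr1* is not analysed here. Of 7 plasmacytoid dendritic genes, 1 fell in *D/F* and 3 in *T/F* cells, against 5 and 6 in the paired fit. *Lair1*, an inhibitory receptor, fell by 3.89 ± 0.27 and 2.70 ± 0.16 (adjusted p = 0.0031 and 0.00038), while the defining marker *Siglech* had log2 changes of −0.23 ± 0.40 and 0.03 ± 0.14 (adjusted p = 0.75 and 0.86). The part of these cell types in the Tcrg values was not tested.

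The c-Kit+ myeloid progenitor list holds genes of the enriched cells, some of which, such as *Itgam* and *Csf1r*, also mark more mature myeloid cells. Of 20 genes, 9 fell in *D/F* and 16 in *T/F* cells, and none rose, against 6.51% and 17.6% of all genes lower. Paired by mouse, 19 fell in *D/F* cells. The median log2 changes were −1.63 and −1.23. *Gfi1*, a transcriptional repressor that granulocytes need to develop, fell by 3.34 ± 0.40 and 2.67 ± 0.12 (adjusted p = 0.0083 and 0.0003), *Csf1r*, the macrophage colony-stimulating factor receptor, by 2.45 ± 0.31 and 2.18 ± 0.30 (adjusted p = 0.0095 and 0.0028), and the integrin gene *Itgam* by 1.84 ± 0.42 and 1.73 ± 0.07 (adjusted p = 0.041 and 0.00028). Without *D/F* replicate 2 the *D/F* adjusted p of *Itgam* was 0.054, and without *T/F* replicate 2 that of *Csf1r* in *T/F* cells was 0.050.

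Early lymphoid regulators, the list closest to *Ikzf1* and *Satb1*, moved in both directions. Of 21 genes, 1 rose and 4 fell in *D/F*, and 4 rose and 7 fell in *T/F* cells. Paired by mouse, 2 rose and 9 fell in *D/F* cells, while the *T/F* counts were 4 and 11. *Foxo1*, which drives *Il7r* transcription in lymphocytes, rose from between 2.82 and 5.99 TPM to between 13.5 and 17.5 TPM in *D/F* and from between 3.48 and 5.33 TPM to between 12.2 and 15.5 TPM in *T/F* cells. Its log2 changes were 1.71 ± 0.27 (adjusted p = 0.016) and 1.41 ± 0.16 (adjusted p = 0.0015). *Myb* fell by 2.33 ± 0.19 and 1.61 ± 0.15 on the log2 scale (adjusted p = 0.0043 and 0.00093), *Runx1* by 2.23 ± 0.27 and 0.88 ± 0.12 (adjusted p = 0.0085 and 0.0025), and *Foxp1* by 1.03 ± 0.18 and 0.48 ± 0.07 (adjusted p = 0.020 and 0.0028). *Myb* and *Runx1* encode transcription factors that blood progenitors depend on.

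The pathways of *Notch1*, *Il7r* and *Dntt* had their own lists. Of the Notch pathway genes, 2 of 34 rose and 1 fell in *D/F*, and 7 of 32 rose and 4 fell in *T/F* cells, with median log2 changes of 0.07 in both, where 5.14% and 25.8% of all genes were higher. In the paired fit 7 rose and 6 fell in *D/F* cells. *Numbl*, an inhibitor of Notch, rose by 1.52 ± 0.33 and 1.17 ± 0.13 on the log2 scale (adjusted p = 0.036 and 0.0015), *Aph1b*, a subunit of gamma-secretase, rose by 0.99 ± 0.21 and 0.88 ± 0.15 (adjusted p = 0.035 and 0.0057), and *Dtx4*, a Deltex ubiquitin ligase gene, fell by 2.41 ± 0.25 and 1.63 ± 0.13 (adjusted p = 0.0070 and 0.00066). Of 25 interleukin-7 receptor signalling genes, 2 fell in *D/F*, and 4 rose and 3 fell in *T/F* cells. Paired, 1 rose and 7 fell in *D/F*, and 6 rose and 6 fell in *T/F* cells. *Bcl2*, which keeps cells alive downstream of that receptor and of others, fell from between 28.9 and 58.3 to between 5.12 and 7.47 TPM in *D/F* and from between 24.9 and 43.1 to between 4.79 and 7.99 TPM in *T/F* cells, by 2.41 ± 0.30 and 2.24 ± 0.24 on the log2 scale (adjusted p = 0.0089 and 0.0014). Among 14 end-joining partners of TdT, 1 rose in *D/F*, and 3 rose and 2 fell in *T/F* cells, and when paired 2 rose and 2 fell (*D/F*) and 5 rose and 2 fell (*T/F*). *Polm*, a DNA polymerase gene related to *Dntt*, rose by 1.52 ± 0.32 and 1.51 ± 0.25 (adjusted p = 0.033 and 0.0050). In *T/F* cells without replicate 2, *Polm* had an adjusted p of 0.066 and *Aph1b* one of 0.059, and without replicate 3 *Aph1b* had 0.053.

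**Figure D3:**
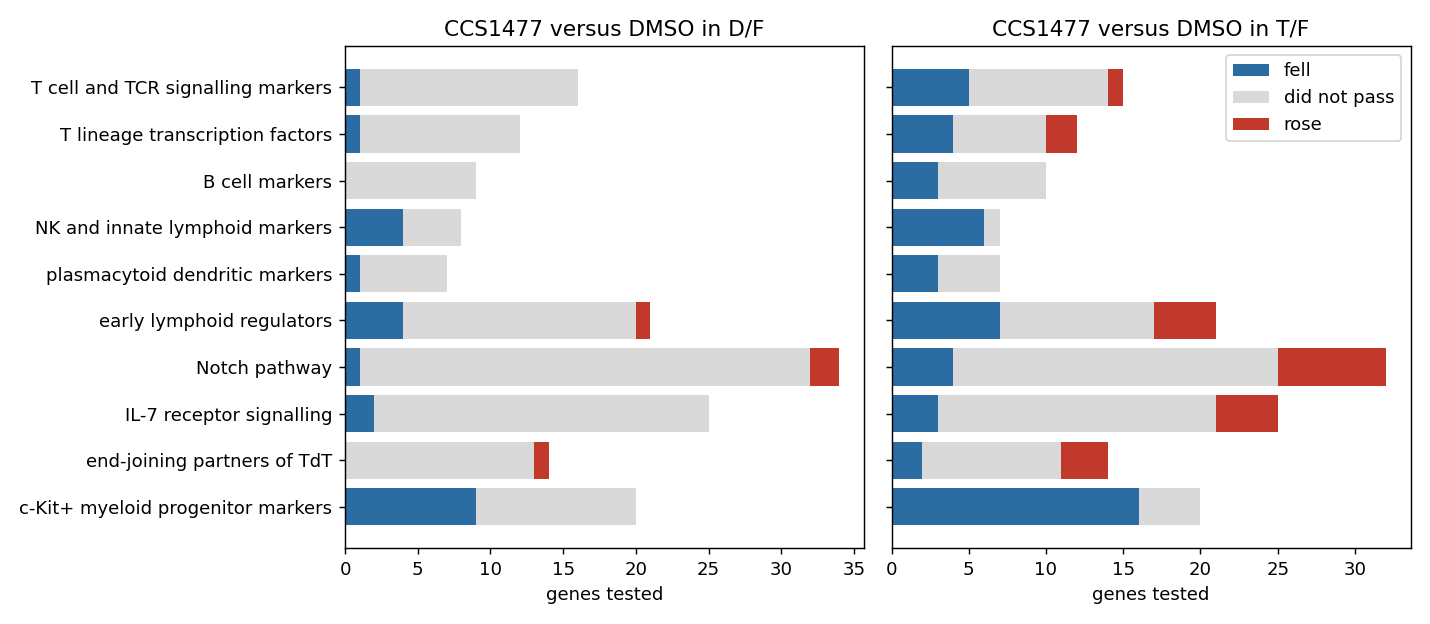
Number of genes tested on each list that fell, did not pass or rose with CCS1477 at an adjusted p under 0.05, for *D/F* on the left and *T/F* on the right. The myeloid progenitor list has 9 of 20 genes falling in *D/F* and 16 of 20 in *T/F* cells, and the Notch list is largely grey in *D/F* cells.

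Of 9 B cell genes tested in *D/F* cells none passed in the unpaired fit, and of 10 in *T/F* cells 3 fell and none rose. Paired by mouse, 1 rose and 3 fell in *D/F*, and 5 fell in *T/F* cells. Their summed level lay between 30.7 and 86.9 TPM in *D/F* DMSO, 24.6 and 67.7 TPM in *D/F* CCS1477, 46.2 and 69.9 TPM in *T/F* DMSO, and 35.6 and 45.1 TPM in *T/F* CCS1477 libraries. *Cd79a* and *Ms4a1* are not analysed here. *Igkc*, the kappa constant gene, was between 20.4 and 27.2 TPM in *T/F* DMSO and between 5.35 and 9.37 TPM in *D/F* DMSO libraries, and its log2 change with CCS1477 was −0.22 ± 0.33 (*D/F*, adjusted p = 0.70) and −0.58 ± 0.25 (*T/F*, adjusted p = 0.12). Its *T/F* to *D/F* log2 difference with DMSO was 1.58 ± 0.21, with an adjusted p of 0.19.

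The heavy-chain joining segments, which lie upstream of *Ighm*, were read in the same libraries. *Ighj2* was 11.5, 21.7 and 18.4 TPM in *T/F* DMSO and 147, 91.4 and 126 TPM in *T/F* CCS1477, a log2 change of 2.76 ± 0.27 (adjusted p = 0.0011). In *D/F* cells it was 3.24, 8.29 and 0 TPM with DMSO and 21.4, 0 and 0 TPM with CCS1477. *Ighj1* was 222, 93.0 and 62.1 TPM in *T/F* DMSO and 258, 150 and 321 TPM with CCS1477, with a log2 change of 1.08 ± 0.52 (adjusted p = 0.15). In *D/F* cells *Ighj1* did not exceed 71.5 TPM. *Ighj3* averaged 31.8 ± 17.4 and 57.7 ± 34.7 TPM in *T/F* cells with DMSO and CCS1477, and *Ighj4* 46.0 ± 6.2 and 65.3 ± 15.6 TPM (SD, n = 3). Their *T/F* log2 changes were 0.87 ± 0.63 and 0.48 ± 0.20 (adjusted p = 0.30 and 0.10), and *Ighj4* passed when paired by mouse (adjusted p = 0.037). In *D/F* cells the log2 changes were 1.80 ± 1.55 and −0.78 ± 1.51 (adjusted p = 0.48 and 0.77). The other receptor segments in the table, of the T cell receptor alpha and beta and immunoglobulin kappa loci, had group means of at most 14.2 TPM. Of these, *Trav13-3* averaged 1.59 and 0.0355 TPM in *D/F* cells with DMSO and CCS1477, and *Trav16* 1.17 and 0.267 TPM in *T/F* cells. Both reached the filter of 1 TPM only through the DMSO group, which fixed the direction, so these values are descriptions. Other segments averaged more with CCS1477 in *D/F* cells. *Traj11* went from 0 to 12.3 TPM, *Traj2* from 1.97 to 12.8 TPM and *Igkj3* from 0 to 14.2 TPM. Each of these was listed at 0 in 9 of 12 libraries. In *T/F* cells *Traj11* went from 1.05 to 0 TPM and *Igkj3* from 7.35 to 0 TPM. In each genotype *Traj11* and *Igkj3* reached the filter only through the group where they were higher, which fixed the direction. Joining segments are very short, so a few reads give a large TPM, and reads from one unspliced transcript could count for several of these genes.

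**Figure D4:**
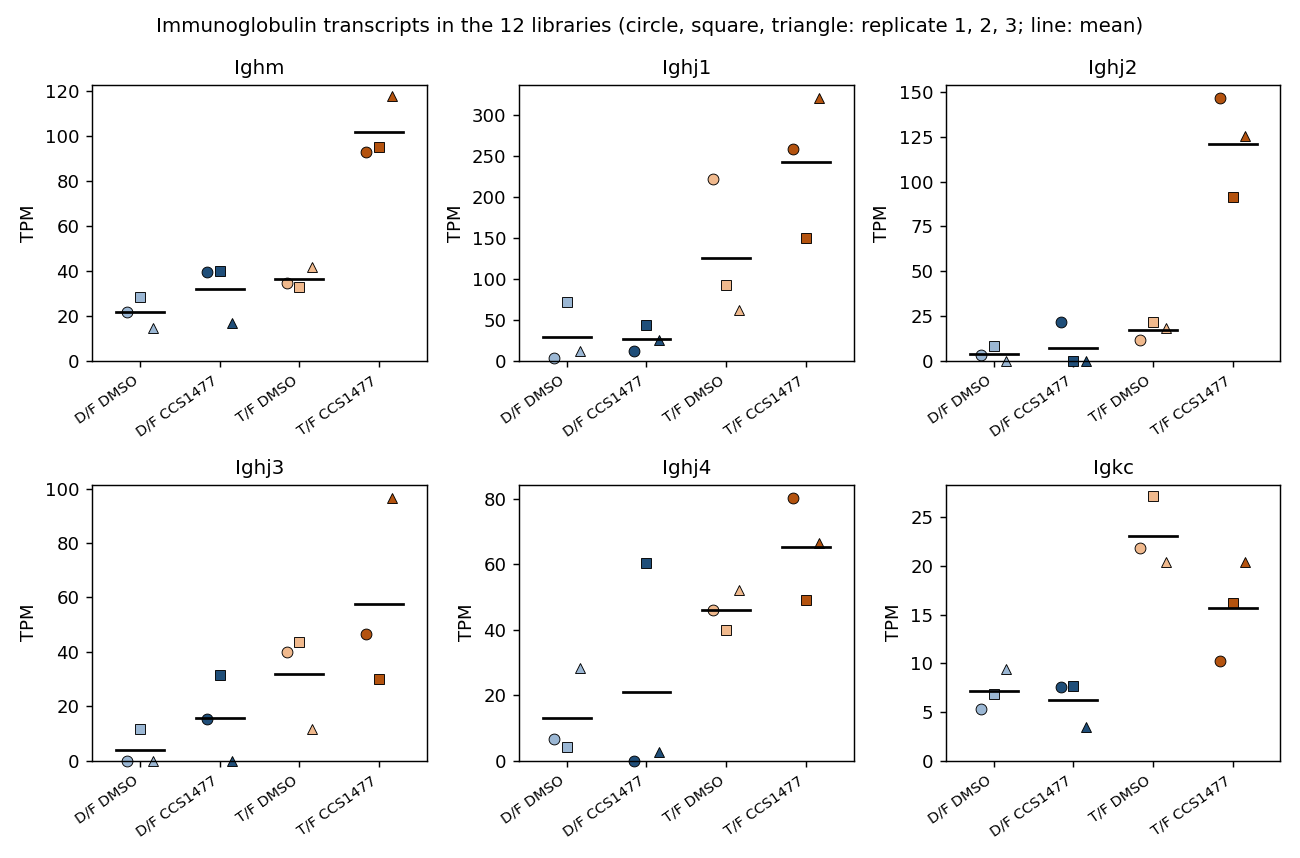
TPM of *Ighm*, 4 heavy-chain joining segments and *Igkc* in the 12 libraries, with linear axes from 0, symbols for replicates and lines for means. *Ighm* and *Ighj2* are highest in the 3 *T/F* CCS1477 libraries, at 93.1 TPM or more and 91.4 TPM or more, while *Igkc* is not raised there.

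Within 500 kb of *Tcrg-C1* the table holds 3 genes that are not Tcrg constants, and none of them passed as lower in the unpaired fit. *Stard3nl* rose by 0.75 ± 0.18 on the log2 scale in *D/F* (adjusted p = 0.049) and by 0.62 ± 0.12 in *T/F* cells (adjusted p = 0.0092). *Vps41* had log2 changes of 0.17 ± 0.18 and 0.39 ± 0.06 (adjusted p = 0.57 and 0.0050), and *Epdr1* of −0.61 ± 0.34 and −0.35 ± 0.17 (adjusted p = 0.29 and 0.14). *Epdr1* was lower with CCS1477 in all 6 mice, and paired by mouse it passed as lower in both genotypes (adjusted p = 0.016 and 0.025).

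Among the genes most like *Tcrg-C1* over the 12 libraries, of 12390 compared, were *Ms4a2*, *Tuba8*, *Mfsd10* and *Mrpl50*, with Pearson r between 0.981 and 0.983 on log2 values. The points share the treatment groups, so these values are descriptions. *Ms4a2*, the beta chain of the high-affinity IgE receptor of mast cells and basophils, averaged 9.48 TPM in *D/F* DMSO and 0.653 TPM in *D/F* CCS1477, and 6.87 and 1.25 TPM in *T/F* cells. On deviations from the group means its r was 0.840. Among the members themselves, deviations of *Tcrg-C4* went with those of *Dntt* (r = 0.911) and *Ikzf1* (r = 0.918). Those of *Tcrg-C1* and *Tcrg-C2* went together less closely (r = 0.445). *Tcrg-C4*, *Dntt* and *Ikzf1* were each highest in replicate 2 among the *D/F* DMSO libraries, and the correlations without that mouse were not computed.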

How the data were processed

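Per the labels and methods, the authors quantified RNA-seq reads with kallisto, with mm10 named as the build, and processed them in AltAnalyze; the labels name both ribosomal RNA depletion and an mRNA kit. The deposited table holds TPM on a linear scale for 15651 Ensembl genes, each of which reached at least 2.00 TPM in some library, and 15257 were given a symbol and position from GENCODE vM21. Depth is unknown. The members and gene lists were chosen with earlier results of these data known. Values were tested as log2(TPM + 1) with limma 3.58.1 in R 4.3.3, two-sided, on genes whose mean reached 1 TPM in either group (any group for the interaction), with Benjamini-Hochberg adjustment over all genes tested; a gene rose or fell at an adjusted p under 0.05. The 5 comparisons were CCS1477 against DMSO in each genotype, *T/F* against *D/F* under each treatment, and the difference of the responses. Same-numbered libraries come from the same mouse per the labels, and their deviations from group means correlated at r = 0.354 to 0.669, against at most 0.141 between mice. The main fit was unpaired. Named genes were the 9 members, up to 3 rises and 3 falls per list by the smaller of the 2 log2 changes among genes that passed with the same sign in both genotypes at 2 TPM or more, the 5 genes most like *Tcrg-C1* (at least 5 TPM in a group; 1 of them is not reported here), antigen receptor genes, genes within 500 kb of *Tcrg-C1*, and *Dnmt3a* and *Tet2*. On simulated data, limma recovered 160 of 200 genes changed by 2 on the log2 scale in the *D/F* comparison and 188 of 200 in the *T/F* comparison. It made 7 and 14 false calls. The changed genes were drawn from those with a mean above 3 on the log2(TPM + 1) scale, with independent noise for each library. The recovery does not describe lower genes, such as *Dntt*, *Il7r* and *Tcrg-C4*, or the pairing by mouse. Alternatives changed the pseudocount, filter, scaling, variance model, block, fold limit and mice.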

Additional observations from a re-analysis of the deposited data

How the results depend on the processing

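With the replicate block (libraries paired by mouse), 5 members and 82 of 166 listed genes passed for CCS1477 against DMSO in *D/F* cells, against 3 and 27 in the unpaired fit, with 39.3% and 11.6% of all genes. No gene of 15583 set apart the responses of the genotypes in either fit (2293 paired and 659 unpaired with an unadjusted p under 0.05). Quantile normalization gave 5 members in *D/F* cells (18.4% of all genes). One fit over 4 groups gave 65 listed genes in *D/F* cells (31.9% of all genes) and 37 of 163 in *T/F* cells (24.3%), against 74 (43.4%), and under CCS1477 it set 1 member and 3 listed genes apart between genotypes (0.467% of all genes), against 0. The *T/F* call of *Satb1* was lost in that fit (adjusted p = 0.34). Requiring a 2-fold change as well left 3 members and 34 listed genes in *T/F* cells (7.33% of all genes). Leaving out each mouse gave 0 to 5 members and 0 to 55 listed genes in *D/F*, 3 to 5 members and 32 to 66 listed genes in *T/F*, and 0 to 3 listed genes between genotypes under CCS1477. The causes were not tested. In *D/F* cells the calls of *Fcgr3*, *Numbl* and *Itgam* were lost with a pseudocount of 0.1 (adjusted p = 0.051, 0.051 and 0.054), and those of *Aph1b* and *Polm* with quantile normalization (adjusted p = 0.051 and 0.063). Some log2 differences that did not pass changed sign. That of *Il7r* between *T/F* and *D/F* with DMSO, −0.024, was 0.029 with a pseudocount of 0.1, 0.021 after rescaling to the median gene and 0.037 after quantile normalization, and ran from −0.85 to 0.68 over the mice left out. *Notch1* ran from −0.018 to 0.36 there. Under CCS1477 the ranges were −0.28 to 1.15 for *Tcrg-C1*, −0.062 to 0.48 for *Satb1* and −0.20 to 0.14 for *Notch1*, and for the difference of responses −0.084 to 1.30 for *Il7r*. The likeness of *Ms4a2* to *Tcrg-C1* was 0.930 as Spearman's rho and 0.840 on deviations from group means.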
